A study of Homo sapiens with 12 samples.

Results

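The MHC class I antigen presentation genes described here are 9 genes chosen by symbol, HLA-B, HLA-C, HLA-E, B2M, TAP1, TAP2, PSMB8, PSMB9 and NLRC5, out of 60617 genes in the deposited table, and all 9 passed the filter on low values that left 14364 genes for testing. Their RNA was measured by stranded mRNA sequencing in NALM-6 and REH, established human lines of B-cell lymphoblastic leukemia. Cells of both lines spent 48 h in standard medium (RPMI with 10% FCS, called media here) or in CSF, the human cerebrospinal fluid that bathes the brain, giving 4 groups of 3 libraries. No gene was altered in any group, and the labels do not say whether replicates were separate cultures, so p-values measure the spread between libraries, which may be technical. A line is 1 leukemia, and how the CSF was collected or pooled is not given in the sources used here.

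Class I molecules display peptides cut from proteins inside the cell to CD8+ T cells and, in the absence of enough class I, the cell becomes a target of natural killer cells. The proteasome cuts the peptides, the TAP transporter carries them into the endoplasmic reticulum, and there they are loaded onto a heavy chain paired with beta-2-microglobulin. Interferon-gamma raises most of these genes through factors that include IRF1, and NLRC5 drives the promoters of heavy chain genes in lymphoid cells.

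Each library held between 23412869 and 37146556 reads, and levels are given as CPM, reads scaled to a library total of 1000000. Libraries are named by line, medium and replicate number, as in NALM-6 media 1. The lines carried the markers of their lineage: all 9 markers of B-cell leukemia identity reached 1 CPM in at least 1 library, although VPREB1, a surrogate light chain, was at 0.0503 CPM on average in REH CSF against 225 CPM in NALM-6 CSF. The 9 summed to between 3433 and 4073 CPM in NALM-6 media and between 2920 and 2935 in NALM-6 CSF, and to between 2860 and 2901 CPM in REH media and between 1967 and 2125 in REH CSF, lower in CSF without overlap in both lines. CD24 fell in both lines, IGLL1 fell in REH and CD79A rose in NALM-6 (limma, 12 libraries). All tested genes were called at 12.1% in NALM-6 and 14.9% in REH. Without NALM-6 media 1 and REH CSF 3, described below, CD22 and CD79A rose in both lines, beside 29.8% and 32.1% of all tested genes. Then 5 of the 9 fell in NALM-6 and 4 in REH, beside 11% and 13.7% of all tested genes. Of the markers of other blood cells, CD3D and CD5 of T cells, NCR1 of natural killer cells, and FCGR3A, S100A8 and S100A9 of monocytes were at 0 in all 12 libraries. Some members of those lists were nevertheless higher in CSF. The 7 T cell markers summed to between 17.6 and 20.4 CPM in NALM-6 media and between 63.8 and 71.1 CPM in NALM-6 CSF, and to between 32.2 and 35.9 CPM in REH media and between 97.1 and 139 CPM in REH CSF, nearly all of it TRAC and LCK. The 6 natural killer cell markers summed to between 2.49 and 7.08, 9.04 and 9.31, 1.92 and 3.03, and 13.6 and 17.9 CPM in the same order of groups. The 8 monocyte markers summed to between 1.27 and 2.65, 6.51 and 7.74, 11.5 and 12.7, and 61.6 and 77.4 CPM, in REH mostly ITGAM and CSF1R. The part of these markers in the results below was not tested, and in bulk RNA fewer cells of a type and less RNA per cell cannot be told apart.

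In NALM-6 media 1 and REH CSF 3 the make-up of the library was unlike that of the replicates. The share of reads on ribosomal protein genes was 21.9% and 10.3%, against 5.72% to 8.53% in the other 10 libraries. The mean length of the main transcript behind a read was 2.75 kb and 3.39 kb in those libraries, against 3.93 to 4.22 kb in the others. The class I genes moved with this. PSMB9, with a main transcript of 0.782 kb, was 2.46 times the mean of its replicates in NALM-6 media 1 and 1.67 times in REH CSF 3. NLRC5, with one of 6.82 kb, was 0.673 and 0.66 times its replicates in the same libraries. Values are therefore given with all 12 libraries and again for the 10 libraries left without these, and the origin of the shift was not tested.

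**Figure D1:**
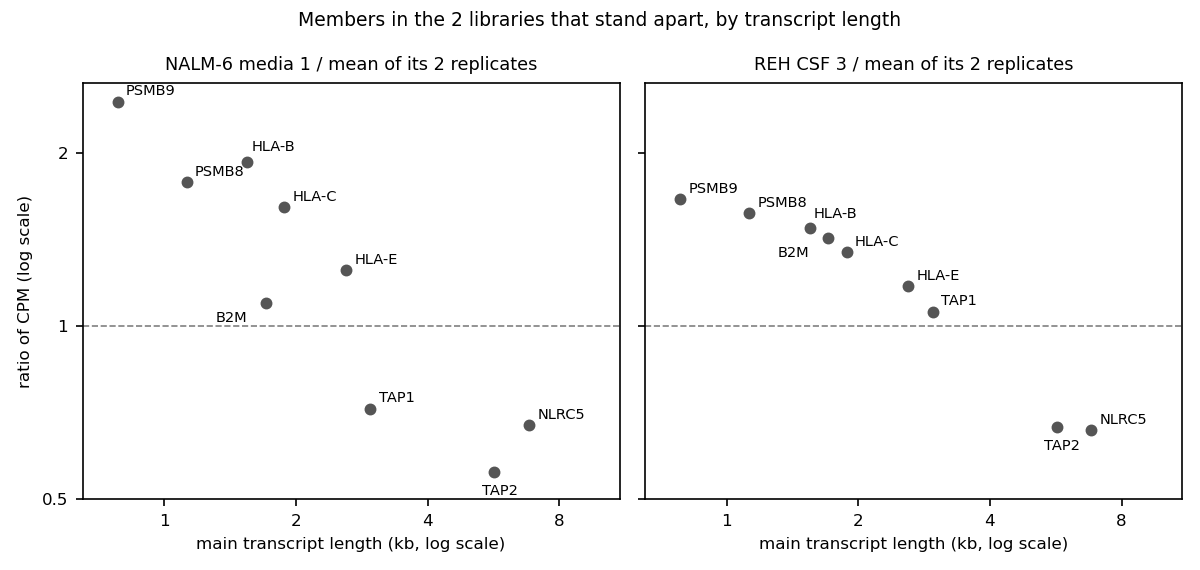
CPM of each of the 9 genes in NALM-6 media 1 (left) and REH CSF 3 (right), divided by the mean of the other 2 libraries of the same group, against the length of the main transcript in kb (both axes logarithmic, the dashed line marks a ratio of 1). The short PSMB9 lies highest, at 2.46 and 1.67, and TAP2 and NLRC5, the longest, lie lowest, between 0.557 and 0.673.

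Per kb of main transcript, B2M and HLA-B were the most abundant of the 9 in every group. B2M stood at 464 ± 31.5 CPM per kb in NALM-6 media, 440 ± 12.5 in NALM-6 CSF, 378 ± 10.5 in REH media and 450 ± 99.8 in REH CSF (mean ± SD, n = 3). HLA-B followed at 413 ± 170, 413 ± 16.9, 276 ± 14.1 and 425 ± 104 CPM per kb, and the libraries of these genes did not overlap in REH media alone. HLA-C, PSMB8, PSMB9 and HLA-E came next, between 73.7 and 185 CPM per kb as group means. Neighbours among them overlapped in NALM-6 media and REH CSF, and PSMB8 overlapped HLA-C in REH media. TAP1 was below HLA-E or PSMB9 in each group without overlap, from 22.7 ± 0.800 CPM per kb in REH media to 50.2 ± 1.32 in NALM-6 CSF. By this measure the lowest place was held by TAP2 in NALM-6 (8.76 ± 2.64 in media, where it overlapped NLRC5, and 10.3 ± 0.405 in CSF) and by NLRC5 in REH (4.85 ± 0.202 and 7.25 ± 1.67). TAP2 shares 2064 bases of exon on its strand with AL669918.1, which was listed at 0 CPM. Whether reads there were counted was not tested, so the place of TAP2 against NLRC5 in NALM-6 is uncertain.

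**Figure D2:**
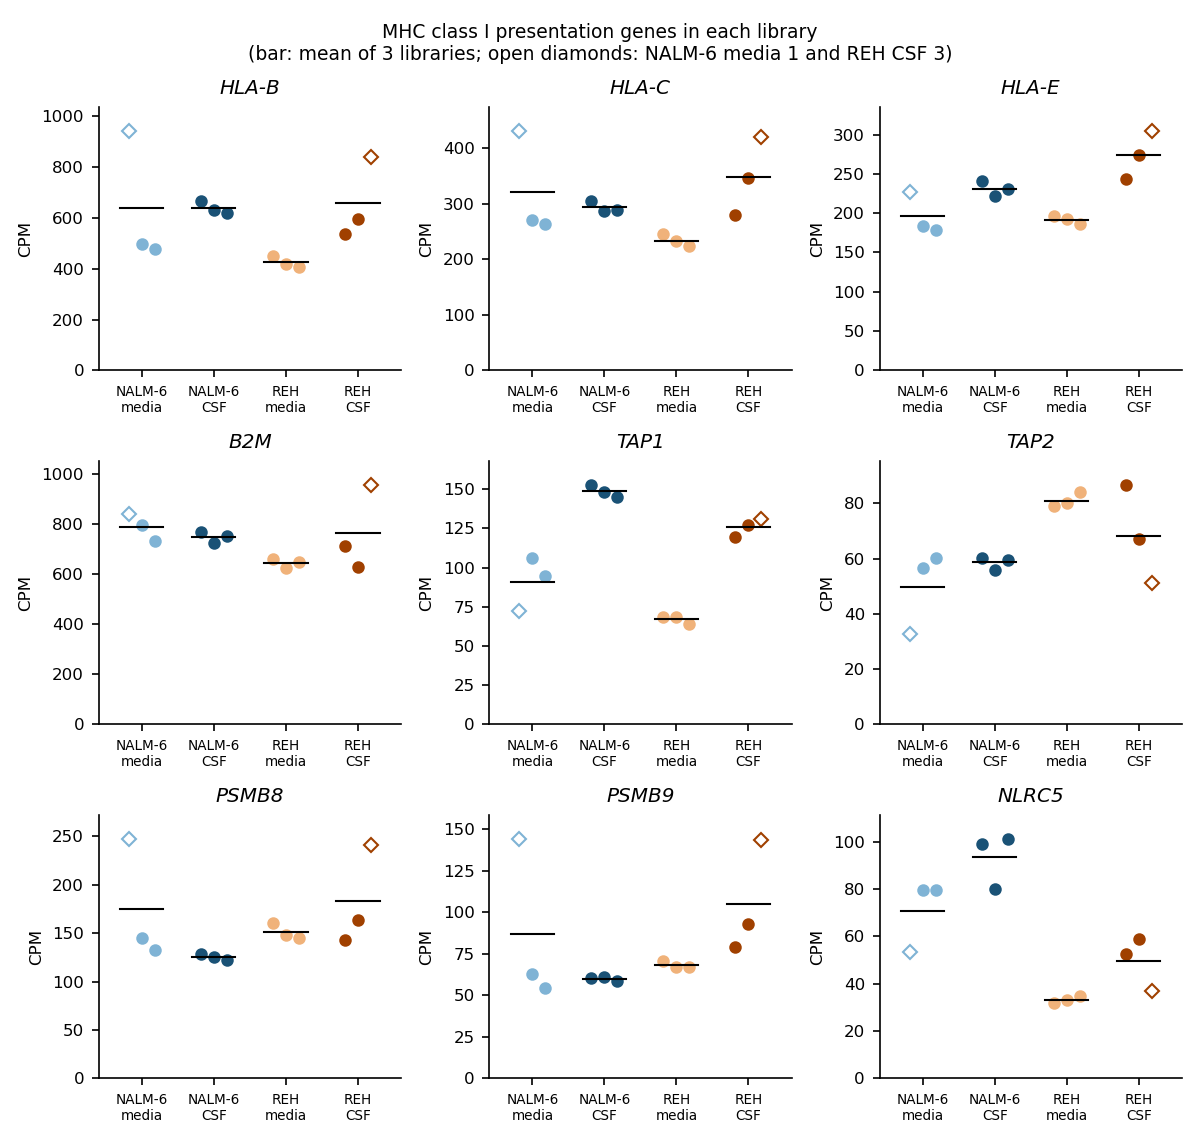
CPM of the 9 genes (1 panel each, axis from 0) in the 12 libraries, by line and medium; points are libraries, bars are means of 3, and open diamonds mark NALM-6 media 1 and REH CSF 3. TAP1 is higher in all CSF libraries than in any media library of the same line, while B2M overlaps between media in both lines.

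The question put to the heavy chain genes was whether 48 h in CSF changed them. HLA-B and HLA-C encode classical heavy chains that present peptides to CD8+ T cells, and HLA-E encodes a nonclassical one that is read by the NKG2A receptor of natural killer cells. In REH all 3 were higher in every CSF library than in any media library, and of these HLA-E passed the test. In NALM-6 none of the 3 passed with 12 libraries, and HLA-B and HLA-E passed with 10.

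HLA-B (6:31269491-31357188, minus strand, GRCh38) was at 943, 498 and 477 CPM in NALM-6 media 1 to 3 and at 668, 630 and 618 CPM in NALM-6 CSF. The REH libraries held 451, 420 and 408 CPM in media and 537, 596 and 839 CPM in CSF. NALM-6 media 1 was the highest of all 12, so the NALM-6 groups overlapped, while the REH groups did not. The difference in log2(CPM + 1) was 0.07 ± 0.25 (SE, n = 3 per group) in NALM-6 (limma, Benjamini-Hochberg adjusted p = 0.869) and 0.60 ± 0.25 in REH (adjusted p = 0.166). Without the pair of libraries it was 0.39 ± 0.06 (adjusted p = 4.53e-04) in NALM-6 and 0.41 ± 0.06 (adjusted p = 2.40e-04) in REH. The NALM-6 difference also took the other sign, at -0.22, under median-of-ratios scaling of all 12 libraries (adjusted p = 0.687).

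HLA-C (6:31268749-31272130, minus strand) was at 431, 271 and 263 CPM in NALM-6 media and at 306, 287 and 289 CPM in NALM-6 CSF. Its level in REH was 246, 233 and 224 CPM in media and 279, 346 and 421 CPM in CSF. Again a single library, NALM-6 media 1, was above all NALM-6 CSF libraries, whereas the REH groups were separate. The log2 difference was -0.09 ± 0.20 in NALM-6 (adjusted p = 0.772) and 0.55 ± 0.20 in REH (adjusted p = 0.107), and with 10 libraries 0.14 ± 0.08 (adjusted p = 0.188) and 0.41 ± 0.08 (adjusted p = 0.00124).

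HLA-E (6:30489467-30494205, plus strand) was at 228, 184 and 179 CPM in NALM-6 media and at 241, 222 and 231 CPM in NALM-6 CSF. REH libraries were at 196, 192 and 187 CPM in media and at 244, 274 and 305 CPM in CSF. It was the heavy chain gene least moved by the libraries that stood apart, and its REH groups did not overlap. It rose in REH by 0.51 ± 0.13 on the log2 scale (adjusted p = 0.0249), while in NALM-6 the difference was 0.24 ± 0.13 (adjusted p = 0.225). The REH call was lost under edgeR (adjusted p = 0.220), DESeq2 (0.239) and median-of-ratios scaling (0.268), and with the replicate number as a block (0.108). It was also lost when any 1 of REH media 1, 2 or 3, REH CSF 2 or REH CSF 3 was left out (adjusted p between 0.0706 and 0.0974). With 10 libraries the difference was 0.43 ± 0.06 in REH (adjusted p = 1.14e-04) and 0.35 ± 0.06 in NALM-6 (adjusted p = 7.25e-04). With all 12 libraries the NALM-6 difference took the other sign, uncalled, under median-of-ratios scaling (-0.05), edgeR (-0.09) and DESeq2 (-0.12).

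B2M (15:44711487-44718877, plus strand), the light chain that every class I molecule needs to reach the surface, passed the test in neither line. It was at 841, 798 and 734 CPM in NALM-6 media and at 769, 727 and 754 CPM in NALM-6 CSF, and at 660, 625 and 648 CPM in REH media and 715, 630 and 958 CPM in REH CSF. Groups overlapped in both lines. The log2 difference was -0.08 ± 0.15 in NALM-6 (adjusted p = 0.741) and 0.23 ± 0.15 in REH (adjusted p = 0.418), and with 10 libraries -0.03 ± 0.06 (adjusted p = 0.757) and 0.06 ± 0.06 (adjusted p = 0.477). The heavy chain HLA-E set against B2M within each library gave a log2 ratio of -2.01 ± 0.12 in NALM-6 media and -1.70 ± 0.02 in NALM-6 CSF, and of -1.75 ± 0.05 in REH media and -1.47 ± 0.24 in REH CSF (SD, n = 3). In each line the 3 CSF ratios lay above the 3 media ratios, for which the exact two-sided permutation p was 0.1, the smallest that 3 against 3 allows (0.168 after Benjamini-Hochberg adjustment over 32 ratio tests). The ratio of HLA-B to B2M separated the media in REH (exact p = 0.1) and overlapped in NALM-6 (exact p = 0.6), and that of HLA-B to HLA-C overlapped in both (exact p = 0.3 in NALM-6 and 0.6 in REH). With 10 libraries the NALM-6 groups did not overlap for either ratio. There HLA-B to B2M went from a mean of -0.65 in NALM-6 media to -0.23 in CSF, and HLA-B to HLA-C from 0.87 to 1.12. In REH the first still separated the media and the second still overlapped.

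The promoters of the classical heavy chains and B2M share an upstream module, known as SXY, through which NLRC5 and its partners RFX, CREB and NF-Y act. They are shown because, with 10 libraries, HLA-B and HLA-C were called in REH CSF and B2M was not. Motifs were searched in the 250 bases before the annotated start, from RefSeq on GRCh38.p14, and the 200 nearest to the start, which held every match, are printed 5′ to 3′ on the gene's strand. The printed stretches cover chr6:31357180-31357379 (minus strand) for HLA-B, chr6:31272093-31272292 (minus strand) for HLA-C and chr15:44711317-44711516 (plus strand) for B2M. Capitals mark matches, on either strand and overlaps included, to AANNGAAA and GAAANNGAA (letters of interferon response elements), and TGACG followed 10 to 40 bases later by ATTGG (CREB and NF-Y letters, on the printed strand).
HLA-B: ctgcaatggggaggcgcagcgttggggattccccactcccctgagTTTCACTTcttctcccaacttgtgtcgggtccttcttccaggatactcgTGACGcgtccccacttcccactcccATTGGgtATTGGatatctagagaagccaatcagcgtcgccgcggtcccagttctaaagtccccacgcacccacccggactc
HLA-C: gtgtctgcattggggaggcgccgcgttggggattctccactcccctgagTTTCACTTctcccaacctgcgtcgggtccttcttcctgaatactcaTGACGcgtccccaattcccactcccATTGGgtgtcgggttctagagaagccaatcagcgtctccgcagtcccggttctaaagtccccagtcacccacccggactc
B2M: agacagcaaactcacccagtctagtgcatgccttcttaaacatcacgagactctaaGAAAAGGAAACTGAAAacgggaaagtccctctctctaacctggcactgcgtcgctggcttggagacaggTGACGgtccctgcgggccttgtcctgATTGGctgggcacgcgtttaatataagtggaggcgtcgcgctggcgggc
TGACG followed by ATTGG was held by all 3 windows, with 20 bases between them in HLA-C, 20 and 27 in HLA-B and 21 in B2M, and by 0.484% of 35114 promoter windows of 250 bases. AANNGAAA, in 20.3% of all windows, was matched once by each heavy chain window and 2 times by B2M. GAAANNGAA, in 6.88% of all windows, was matched 2 times by B2M and by neither heavy chain. The promoter table matched 7 of the 9 genes, and HLA-E and NLRC5 have no window here.

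TAP1 and TAP2 encode the paired subunits of the transporter that moves peptides into the endoplasmic reticulum. TAP1 was the one gene of the 9 that rose in CSF in both lines by the main test. TAP2 passed in neither line, and the ratio of TAP1 to TAP2 was higher in each CSF library than in any media library of the same line.

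TAP1 (6:32845209-32853978, minus strand) was at 72.2, 106 and 94.7 CPM in NALM-6 media and at 153, 148 and 145 CPM in NALM-6 CSF. In REH it was at 68.4, 68.4 and 64.3 CPM in media and at 119, 127 and 131 CPM in CSF. Every CSF library was above every media library of either line, and REH CSF 3 was close to its replicates, at 1.06 times their mean. The rise was 0.72 ± 0.14 on the log2 scale, 1.64-fold, in NALM-6 (adjusted p = 0.00966) and 0.90 ± 0.14, 1.86-fold, in REH (adjusted p = 0.00154). The NALM-6 rise was smaller under median-of-ratios scaling (0.43), edgeR (0.44) and DESeq2 (0.43), and still called. In REH these gave 0.82, 0.85 and 0.83. The labels do not say that replicate numbers pair libraries. With the replicate number as a block the NALM-6 value was the same, with an adjusted p of 0.0657. In REH the call held under all 24 alternatives, with adjusted p between 2.56e-19 and 0.0223, and with 10 libraries the rise was 0.56 ± 0.06 in NALM-6 (adjusted p = 3.61e-05) and 0.87 ± 0.06 in REH (adjusted p = 6.25e-07).

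TAP2 (6:32821833-32838780, minus strand) was at 32.6, 56.7 and 60.2 CPM in NALM-6 media and at 60.4, 56.0 and 59.5 CPM in NALM-6 CSF. For REH the values were 79.0, 80.1 and 84.0 CPM in media and 86.7, 67.0 and 51.4 CPM in CSF. NALM-6 media 1 and REH CSF 3 were the lowest of their groups, and groups overlapped in both lines. The log2 difference was 0.28 ± 0.24 in NALM-6 (adjusted p = 0.404) and -0.27 ± 0.24 in REH (adjusted p = 0.578), and with 10 libraries 0.01 ± 0.09 (adjusted p = 0.999) and -0.09 ± 0.09 (adjusted p = 0.476). The log2 ratio of TAP1 to TAP2 within a library went from 0.90 ± 0.25 in NALM-6 media to 1.34 ± 0.06 in CSF, and from -0.27 ± 0.10 in REH media to 0.91 ± 0.44 in CSF. Neither line's groups overlapped (exact permutation p = 0.1, the smallest possible). NALM-6 media 1 and REH CSF 3, at 1.15 and 1.35, held the highest ratio of their groups, and without them the means were 0.78 in NALM-6 media and 0.69 in REH CSF.

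The promoters of the transporter genes are shown because TAP1 was called in CSF and TAP2 was not. The windows, from RefSeq as above, cover chr6:32853705-32853904 (minus strand) for the upstream start of TAP1 and chr6:32838740-32838939 (minus strand) for TAP2, with the same capitals.
TAP1: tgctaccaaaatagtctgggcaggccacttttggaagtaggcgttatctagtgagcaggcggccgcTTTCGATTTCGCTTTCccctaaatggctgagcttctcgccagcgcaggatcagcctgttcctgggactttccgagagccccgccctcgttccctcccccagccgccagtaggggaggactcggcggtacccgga
TAP2: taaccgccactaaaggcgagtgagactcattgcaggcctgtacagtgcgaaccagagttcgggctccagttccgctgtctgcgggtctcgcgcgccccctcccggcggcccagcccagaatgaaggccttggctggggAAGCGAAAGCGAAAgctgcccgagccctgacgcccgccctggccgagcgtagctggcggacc
Each window held 2 matches to AANNGAAA (20.3% of all windows hold any), and to GAAANNGAA (6.88%) the TAP1 window held 2 overlapping matches and the TAP2 window 1. A second annotated start of TAP1, downstream of the first, matched none of these motifs. TGACG followed by ATTGG was in neither window, and the PSMB8 and PSMB9 windows, not printed, matched none of these letters. The upstream start of TAP1 (chr6:32853704, minus strand) and the PSMB9 start (chr6:32854192, plus strand) face away from each other. The TAP1 matches lie between these starts, upstream of the window searched for PSMB9. The absence of matches for PSMB9 therefore covers that window only. All motif results here are matches of letters, and binding was not measured.

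PSMB8 and PSMB9 encode catalytic subunits of the immunoproteasome, the form of the proteasome that interferon brings in and that takes the place of PSMB5 and PSMB6 subunits, respectively. Neither gene passed the test in either line with 12 libraries. Set against the subunit it replaces, the ratio of PSMB9 was higher in each CSF library than in any media library of the same line, and that of PSMB8 was not. This was not particular to PSMB9, since the ratio of PSMB10 to PSMB7, a further pair of proteasome genes, was higher in the same way.

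PSMB9 (6:32844136-32859585, plus strand) was at 144, 62.6 and 54.4 CPM in NALM-6 media and at 60.5, 60.9 and 58.4 CPM in NALM-6 CSF. In REH it was at 70.3, 67.2 and 66.7 CPM in media and at 79.2, 92.9 and 143 CPM in CSF. The highest library of each line was the one that stood apart, and in REH alone the groups did not overlap. The log2 difference was -0.39 ± 0.33 in NALM-6 (adjusted p = 0.393) and 0.57 ± 0.33 in REH (adjusted p = 0.336), and with 10 libraries 0.04 ± 0.08 (adjusted p = 0.762) and 0.33 ± 0.08 (adjusted p = 0.00476).

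The log2 ratio of PSMB9 to PSMB6 was -1.21, -1.05 and -1.17 in NALM-6 media and -0.77, -0.72 and -0.75 in NALM-6 CSF. In REH it was -1.10, -1.14 and -1.06 in media and -0.44, -0.49 and -0.52 in CSF. On this scale NALM-6 media 1 and REH CSF 3 lay close to their replicates, and neither line's groups overlapped. The mean rose by 0.39 in NALM-6 and by 0.62 in REH, with an exact permutation p of 0.1 in each, the smallest that 3 against 3 allows (0.168 adjusted over 32 tests). The denominator was lower in CSF with 10 libraries, where PSMB6 fell by 0.32 in NALM-6 (adjusted p = 0.00596) and by 0.30 in REH (adjusted p = 0.00726). With 12 libraries it was at 195 ± 120 CPM in NALM-6 media and 101 ± 2.55 in CSF (adjusted p = 0.160). The log2 ratio of PSMB10 to PSMB7 went from -2.94 ± 0.54 in NALM-6 media to -2.31 ± 0.05 in CSF. In REH it went from -2.57 ± 0.06 to -2.38 ± 0.09, and neither line's groups overlapped (exact permutation p = 0.1 in each). NALM-6 media 1 was at -3.57, against -2.62 and -2.63 in its replicates. With 10 libraries the means of this ratio were -2.63 in NALM-6 media and -2.33 in REH CSF, and the groups still did not overlap. The ratios were chosen after the values had been seen.

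PSMB8 (6:32840717-32844703, minus strand) was at 247, 145 and 132 CPM in NALM-6 media and at 129, 126 and 123 CPM in NALM-6 CSF. REH values were 161, 148 and 145 CPM in media and 143, 164 and 241 CPM in CSF. In NALM-6 the CSF libraries lay just below the media libraries, and in REH the groups overlapped. The log2 difference was -0.42 ± 0.24 in NALM-6 (adjusted p = 0.245) and 0.24 ± 0.24 in REH (adjusted p = 0.649), and with 10 libraries -0.14 ± 0.07 (adjusted p = 0.141) and 0.02 ± 0.07 (adjusted p = 0.855). The log2 ratio of PSMB8 to PSMB5 was 0.50 ± 0.11 in NALM-6 media and 0.51 ± 0.07 in CSF, which overlapped, and 0.51 ± 0.01 in REH media and 0.40 ± 0.02 in CSF, where CSF was lower without overlap (exact permutation p = 0.1).

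**Figure D3:**
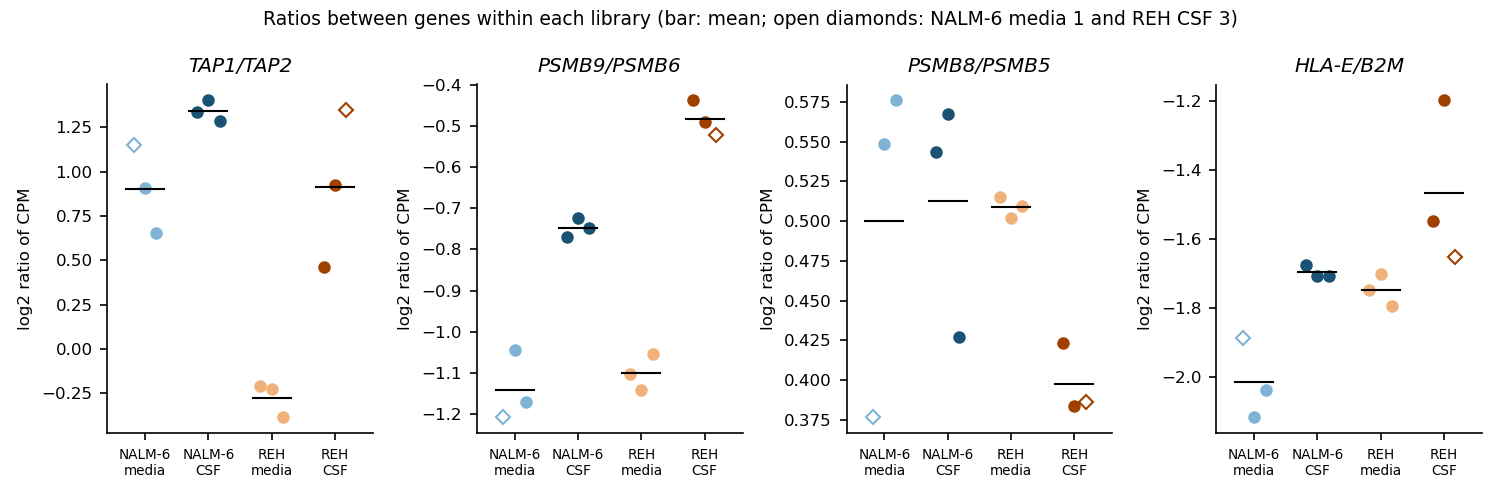
Log2 ratio of CPM between a pair of genes within each library, for TAP1/TAP2, PSMB9/PSMB6, PSMB8/PSMB5 and HLA-E/B2M, by line and medium; points are libraries, bars are means of 3, open diamonds mark NALM-6 media 1 and REH CSF 3, and axes do not start at 0. PSMB9/PSMB6 separates the media in both lines, from a mean of -1.14 to -0.75 in NALM-6 and from -1.10 to -0.48 in REH.

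NLRC5 (16:56989485-57083531, plus strand), the transactivator of class I genes, was at 53.5, 79.7 and 79.4 CPM in NALM-6 media and at 99.1, 80.1 and 101 CPM in NALM-6 CSF. In REH it was at 31.8, 33.0 and 34.6 CPM in media and at 52.7, 58.9 and 36.8 CPM in CSF. CSF libraries were above media libraries in both lines, by a narrow margin for NALM-6 CSF 2 and REH CSF 3. The log2 difference was 0.41 ± 0.21 in NALM-6 (adjusted p = 0.197) and 0.54 ± 0.21 in REH (adjusted p = 0.128), neither of which passed. With 10 libraries it was 0.22 ± 0.09 in NALM-6 (adjusted p = 0.0801) and 0.73 ± 0.09 in REH (adjusted p = 6.13e-05). With all 12 libraries DESeq2 called the REH rise (0.50, adjusted p = 0.0174) and edgeR did not (0.51, adjusted p = 0.0706).

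**Figure D4:**
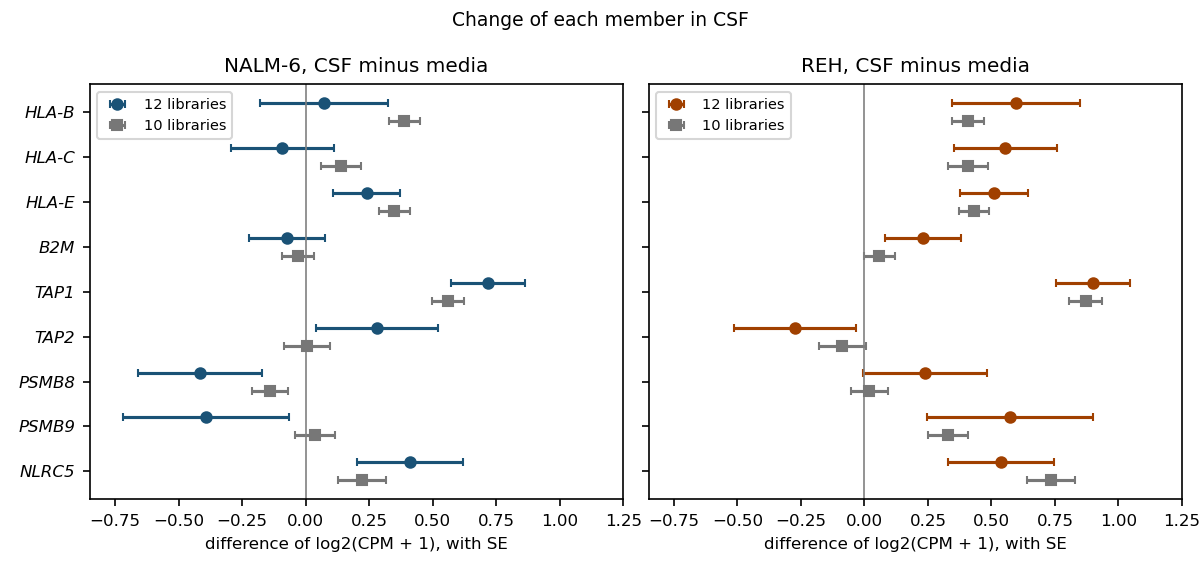
Difference of log2(CPM + 1), CSF minus media, of each gene in NALM-6 (left) and REH (right), with standard errors from limma, for all 12 libraries (circles) and for the 10 left without NALM-6 media 1 and REH CSF 3 (squares). TAP1 is the highest in both lines with either set of libraries, and TAP2 is near 0 with 10 libraries, at 0.01 and -0.09.

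Over the set, 1 of the 9 genes, TAP1, was called in NALM-6 CSF and rose, where 12.1% of all tested genes were called and 10.9% rose (limma, 12 libraries). In REH CSF 2 of the 9, TAP1 and HLA-E, were called and rose, where 14.9% were called and 13.2% rose. At an unadjusted p under 0.05 the count was 1 in NALM-6, against 30.9% of all tested genes, and 5 in REH, against 24.7%. The groups did not overlap for 3 of the 9 in NALM-6, against 46.6% of all tested genes, and for 6 of the 9 in REH, all higher in CSF, against 43.1% of all tested genes, with 28.8% higher in CSF. The median log2 difference of the 9 was 0.07 in NALM-6, where that of all tested genes was 0.25, and 0.54 in REH, where it was 0.07. The 2 comparisons have different controls but share 1 variance estimate.

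With 10 libraries, 3 of the 9 rose in NALM-6 CSF (HLA-B, HLA-E and TAP1) beside 40.8% of all tested genes called and 29.8% that rose, and 6 rose in REH CSF (HLA-B, HLA-C, HLA-E, TAP1, PSMB9 and NLRC5) beside 45.9% called and 32.1% that rose. B2M, TAP2 and PSMB8 were called in neither line. The medians of the 9 were then 0.14 and 0.41, against 0.09 for all tested genes in each line. A correction of each library for transcript length, which keeps all 12 libraries, also called 3 and 6 of the 9, all of them higher, beside 17.3% and 17.8% of all tested genes called and 15.2% and 14.9% that rose. That correction was added after the data had been seen.

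Whether the CSF response differed between the lines was tested by the interaction. None of the 9 passed with 12 libraries (limma, 4.23% of all tested genes called), 1 had an unadjusted p under 0.05 (HLA-C, log2 difference of the responses 0.65 ± 0.29, REH above NALM-6, unadjusted p = 0.0477, adjusted p = 0.283), edgeR called 0 and DESeq2 called TAP1 (0.41 ± 0.12, adjusted p = 0.0317). With 10 libraries TAP1 rose more in REH by 0.31 ± 0.09 (adjusted p = 0.0380) and NLRC5 by 0.51 ± 0.13 (adjusted p = 0.0232), beside 15.3% of all tested genes called and 7.96% with the higher response in REH. The REH response was the higher for 8 of the 9 genes, all but TAP2, with 12 libraries and with 10. With the transcript length correction it was the higher for 7, B2M being at -0.11. The share over all tested genes was not counted. The median difference of the responses was 0.30 for the 9 and -0.14 for all tested genes with 12 libraries. With 10 libraries it was 0.16 and -1.58e-04, and 0.11 and -0.17 with the length correction.

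The lines also differed in the same medium, which the comparison of REH with NALM-6 addressed. NLRC5 was lower in REH in both media, without overlap in either. In media the log2 difference, REH minus NALM-6, was -1.05 ± 0.21 (33.1 ± 1.38 against 70.9 ± 15.0 CPM, adjusted p = 0.00200), and in CSF it was -0.92 ± 0.21 (49.5 ± 11.4 against 93.4 ± 11.6 CPM, adjusted p = 0.00443). Both calls held under all 24 alternatives, with adjusted p no higher than 0.0125 and 0.0221.

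The transporter genes differed in opposite directions in media. TAP1 was lower in REH, with a log2 difference of -0.42 ± 0.14 (67.0 ± 2.37 against 91.1 ± 17.3 CPM, adjusted p = 0.0398), and TAP2 was higher by 0.74 ± 0.24 (81.0 ± 2.63 against 49.8 ± 15.0 CPM, adjusted p = 0.0308). Neither gene's groups overlapped. The TAP1 call was kept by 13 of the 24 alternatives (adjusted p up to 0.121), and those that ended it included leaving out NALM-6 media 2 or 3, any 1 NALM-6 CSF library, any 1 REH media library or REH CSF 2. The TAP2 call was kept by 19 (adjusted p up to 0.0878). It was lost with the replicate block (adjusted p = 0.0601), with no filter, and when any 1 REH media library was left out. In CSF neither passed, at -0.24 ± 0.14 for TAP1 (adjusted p = 0.241) and 0.19 ± 0.24 for TAP2 (adjusted p = 0.598). With 10 libraries both passed in both media: TAP1 was at -0.58 ± 0.06 in media (adjusted p = 5.47e-06) and -0.27 ± 0.06 in CSF (adjusted p = 0.00266), and TAP2 at 0.47 ± 0.09 (adjusted p = 6.93e-04) and 0.37 ± 0.09 (adjusted p = 0.00309).

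Across the set 3 of the 9 were called in media, 1 higher and 2 lower in REH, beside 39.9% of all tested genes (26.4% higher and 13.5% lower), and 1 in CSF, lower in REH, beside 37.9% (13.4% lower). The groups did not overlap for 6 of the 9 in media, against 59.2% of all tested genes, and for 5 in CSF, against 61.4%. With 10 libraries 7 were called in media, beside 67% of all tested genes, and 8 in CSF, beside 69%, so that most tested genes were called. PSMB9 was among them, at 0.22 ± 0.08 in media (adjusted p = 0.0271), where it had been -0.21 with 12 libraries, and at 0.51 ± 0.08 in CSF (adjusted p = 9.42e-05). HLA-B was at -0.19 ± 0.06 in media (adjusted p = 0.0162) and at -0.17 ± 0.06 in CSF (adjusted p = 0.0256), where it had been 0.01. Differences between the lines in HLA-B, HLA-C and HLA-E cannot be told apart from how well each line's alleles match the reference to which reads were aligned.

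The other genes of the pathway were read from lists. The 7 genes of peptide loading and trimming (TAPBP, TAPBPL, CALR, CANX, PDIA3, ERAP1 and ERAP2) had 0 calls in CSF in either line, beside 12.1% and 14.9% of all tested genes (limma; 0 at an unadjusted p under 0.05 in each, edgeR 0 and 0, DESeq2 2 and 0). With 10 libraries PDIA3 fell in NALM-6 CSF, and CALR and ERAP2 rose in REH CSF, beside 40.8% and 45.9% called. TAPBP, the tapasin that holds class I at the transporter, was at 155 ± 29.9 and 178 ± 5.60 CPM in NALM-6 media and CSF and at 191 ± 4.16 and 204 ± 21.6 CPM in REH. The median log2 difference of this list was -0.04 in NALM-6, against 0.25 for all tested genes, and 0.14 in REH, against 0.07. With 10 libraries it was -0.01 and 0.11, against 0.09 in each line. The 8 proteasome partners and constitutive counterparts also had 0 calls in CSF in either line (limma; 3 and 0 at an unadjusted p under 0.05, edgeR 0 and 0, DESeq2 4 and 0). With 10 libraries 4 of them fell in NALM-6 CSF (PSMB6, PSMB7 and the activator subunits PSME1 and PSME2), where 11% of all tested genes fell, and 2 fell in REH CSF (PSMB6 and PSME3), where 13.7% fell. With 12 libraries those shares were 1.23% and 1.71%. Between the lines, the chaperones CALR (-0.61 ± 0.19, adjusted p = 0.0265) and PDIA3 (-0.41 ± 0.11, adjusted p = 0.0119) were lower in REH in media, and the trimming peptidase ERAP2 was higher in REH in CSF (0.46 ± 0.12, adjusted p = 0.0111).

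Of 11 transcription regulators of class I genes, 1 rose in NALM-6 CSF and none passed in REH CSF, beside 12.1% and 14.9% of all tested genes called (limma; in REH 1 at an unadjusted p under 0.05, edgeR 1, DESeq2 1). With 10 libraries 4 rose (IRF1, NFKB1, NFYA and RFXAP) and 2 fell (CREB1 and RFX5) in NALM-6 CSF, and 2 rose (RFXANK and RFXAP) and 3 fell (CREB1, NFYA and RFX5) in REH CSF, beside 40.8% and 45.9% called. The gene called with 12 libraries was IRF1, an activator of TAP1 and PSMB9, at 59.5, 64.9 and 63.7 CPM in NALM-6 media and at 90.7, 85.6 and 83.2 CPM in NALM-6 CSF. The 3 CSF libraries were all above the 3 media libraries, a log2 difference of 0.46 ± 0.11 (adjusted p = 0.0191). With the replicate block the adjusted p was 0.121, and 15 of the 24 alternatives kept the call (adjusted p up to 0.444). It was lost under median-of-ratios scaling and quantile normalization, with log2 differences of 0.17 and 0.23, under edgeR, DESeq2 and the transcript length correction, and when any 1 NALM-6 CSF library was left out. In REH IRF1 was at 118 ± 0.914 CPM in media and 121 ± 5.62 in CSF (adjusted p = 0.900), higher than in NALM-6 by 0.91 ± 0.11 in media (adjusted p = 4.01e-05) and by 0.48 ± 0.11 in CSF (adjusted p = 0.00369).

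NFKB1, a subunit of NF-kappa B, was lower in REH in CSF, with a log2 difference of -1.14 ± 0.36 (72.1 ± 14.0 against 158 ± 8.01 CPM, adjusted p = 0.0283). That call was lost when any 1 NALM-6 CSF library, REH CSF 2 or REH CSF 3 was left out (adjusted p between 0.0540 and 0.103).

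Of 7 interferon receptor chains and kinases, 0 were called in CSF in either line, beside 12.1% and 14.9% of all tested genes (limma; 4 in NALM-6 and 1 in REH at an unadjusted p under 0.05, edgeR 0 and 0, DESeq2 0 and 0). With 10 libraries IFNAR2 and JAK2 rose in NALM-6 CSF and JAK2 and TYK2 rose in REH CSF, beside 29.8% and 32.1% of all tested genes that rose. Between the lines the chains of the interferon-gamma receptor differed. IFNGR1, the chain that binds the ligand, was at 28.2 ± 9.92 CPM in NALM-6 media and 104 ± 3.66 in REH media, higher in REH by 1.91 ± 0.23 on the log2 scale (adjusted p = 5.68e-05), and in CSF by 1.22 ± 0.23 (adjusted p = 0.00151). IFNGR2, the chain that signals through JAK2, had 0 reads in the 3 NALM-6 media libraries together and 1 read in the 3 NALM-6 CSF libraries. In REH it had between 1182 and 1273 reads per library in media and between 946 and 1553 in CSF. Against a floor of 3 reads over the NALM-6 media group it was at least 1396-fold higher in REH media. In CSF the ratio was 4092 (95% exact counting interval 734 to 161674, counting error only). JAK2 itself was at 10.0 ± 6.94 CPM in NALM-6 media, 21.1 ± 1.38 in NALM-6 CSF, 20.6 ± 0.898 in REH media and 20.8 ± 8.18 in REH CSF. With 10 libraries its rise was 0.57 ± 0.10 in NALM-6 (adjusted p = 7.64e-04) and 0.29 ± 0.10 in REH (adjusted p = 0.0319).

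**Figure D5:**
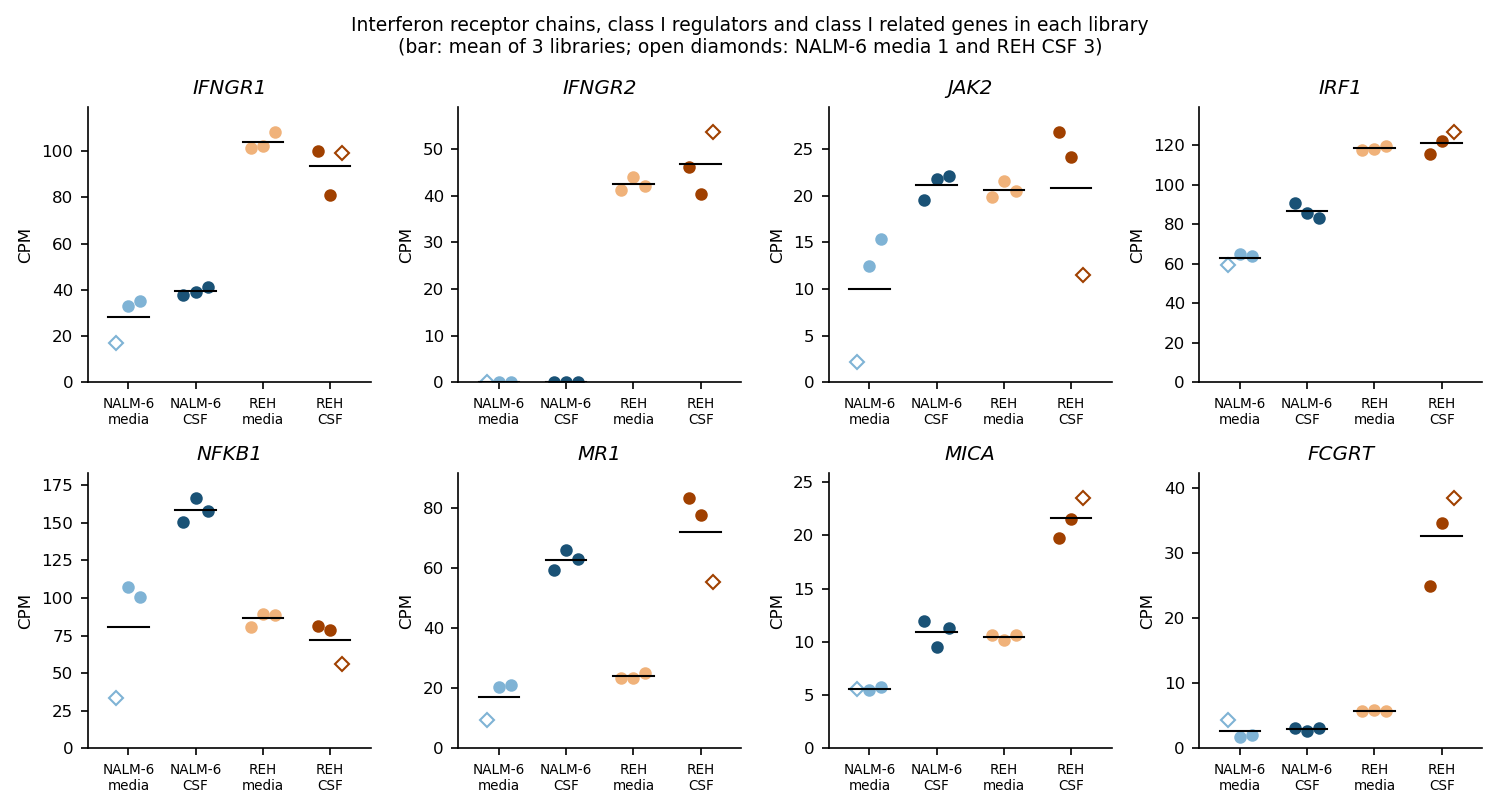
CPM of IFNGR1, IFNGR2, JAK2, IRF1, NFKB1, MR1, MICA and FCGRT (1 panel each, axis from 0) in the 12 libraries, by line and medium; points are libraries, bars are means of 3, open diamonds mark NALM-6 media 1 and REH CSF 3. IFNGR2 is at or near 0 in all NALM-6 libraries and between 40.4 and 53.7 CPM in REH, and MR1 is higher in CSF in both lines.

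Among 8 class I related molecules, of which 6 passed the filter, 2 rose in NALM-6 CSF and 3 in REH CSF, beside 10.9% and 13.2% of all tested genes that rose. With 10 libraries 4 rose in each line (MR1, MICA, MICB and FCGRT), beside 29.8% and 32.1%. MR1, which presents microbial vitamin B metabolites to mucosal-associated T cells, was at 9.39, 20.5 and 21.1 CPM in NALM-6 media and at 59.4, 65.9 and 62.9 CPM in NALM-6 CSF, and at 23.5, 23.4 and 25.2 CPM in REH media and 83.3, 77.6 and 55.4 CPM in REH CSF. It rose by 1.90 ± 0.27 on the log2 scale in NALM-6 (adjusted p = 0.00122) and by 1.53 ± 0.27 in REH (adjusted p = 0.00280), and each of the 24 alternatives kept both calls. MICA, a stress ligand of the NKG2D receptor, rose by 0.85 ± 0.12 in NALM-6 (5.60 ± 0.171 to 10.9 ± 1.28 CPM, adjusted p = 0.00130) and by 0.97 ± 0.12 in REH (10.5 ± 0.277 to 21.6 ± 1.89 CPM, adjusted p = 2.72e-04). The NALM-6 call of MICA was lost under quantile normalization (adjusted p = 0.206). FCGRT, the heavy chain of the neonatal Fc receptor, which also pairs with B2M, was at 5.69, 5.91 and 5.69 CPM in REH media and at 24.8, 34.5 and 38.4 CPM in REH CSF, a rise of 2.29 ± 0.24 (adjusted p = 7.37e-05). In NALM-6 it was at 2.71 ± 1.44 CPM in media and 2.97 ± 0.212 in CSF (adjusted p = 0.640), and with 10 libraries it rose there by 0.46 ± 0.13 (adjusted p = 0.0135).

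Neighbouring genes at these loci limit some values, since the strand setting of the counting is not given in the sources used here. In the GENCODE release 29 annotation, PSMB8 and PSMB9 share 139 bases of exon on opposite strands. The noncoding PSMB8-AS1, at 22.1 CPM on average, overlaps exons of TAP1 by 456 bases, PSMB8 by 618 and PSMB9 by 174. HLA-B and HLA-C share 35 bases of exon. Of the stretches of 50 bases in a gene's main transcript, 2.54% for HLA-B, 6.39% for HLA-C and 5.13% for HLA-E also occur in transcripts of other genes. For TAP2 the share was 35.8%, the gene overlapping a readthrough locus, AL669918.1, over 2064 bases that itself was listed at 0 CPM. It was 1.07% for TAP1 and 0% for B2M, PSMB8, PSMB9 and NLRC5.

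The genes with the most similar pattern were sought among 10105 protein-coding genes with a mean of at least 5 CPM, as the smallest root mean square difference of centred log2(CPM + 1) values over the 12 libraries. ARFIP2 (0.0597), MEPCE (0.0638), SLBP (0.0647), SEPHS2 (0.0659) and QSOX1 (0.0691) were nearest to the mean of the 9. The nearest to single genes were RNF25 to HLA-B (0.0694), PRKCSH to HLA-C (0.0498), FAAP24 to HLA-E (0.0618), H3F3B to B2M (0.0549), NMT2 to TAP1 (0.0994), NHLRC3 to TAP2 (0.0817), LAMTOR1 to PSMB8 (0.0461), PNKD to PSMB9 (0.0790) and KCNS3 to NLRC5 (0.173). These 12 libraries share the pair that stood apart; its part in the likeness was not tested.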

How the data were processed

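Polyadenylated RNA of 12 libraries, 3 for each combination of line and medium, was sequenced from stranded TruSeq libraries, per the labels' protocols. Build GRCh38 and the tools featureCounts, edgeR, HISAT2 2.1.0, Trimmomatic 0.33 and FastQC appear in the submitters' processing notes. Which annotation release and strand setting were used is not given in the sources used here. CPM, deposited by the authors, summed to 1000000 in each library. In units of 1 read, 100% of the values were whole (tolerance 1e-06), with 23412869 to 37146556 reads per library, and 3 reads, the limit that 0 reads allow, came to 0.0808 to 0.128 CPM. Intervals and floors cover counting error only.

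Gene symbols, coordinates (1-based) and main transcript lengths came from GENCODE release 29, which held 58542 of 60617 IDs, and promoter sequences from RefSeq (GRCh38.p14). The main test was limma 3.58.1 (R 4.3.3) on log2(CPM + 1), with 4 group means, all 12 libraries (8 residual degrees of freedom) and a variance that follows the mean. The tests, two-sided, took in 14364 genes that reached 1 CPM in 3 libraries or more, with Benjamini-Hochberg adjustment over all of them, and called at an adjusted p under 0.05. Fold changes on this scale understate the change of low genes. Each comparison was also run under 24 alternatives: other pseudocounts (0.25 and 5), no filter or one of 5 CPM, median-of-ratios and quantile scaling, robust variance, a replicate block, edgeR 4.0.16 and DESeq2 1.42.0 on the recovered reads, each library left out, NALM-6 media 1 and REH CSF 3 left out together, and a lowess correction for transcript length. On the recovered reads, edgeR called 1341 genes in NALM-6 CSF and 1613 in REH CSF. The scripts were tested on simulated data.

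Same-numbered libraries of the 2 media were correlated by their deviations from the group means. In NALM-6 the values for numbers 1 to 3 were 0.36, 0.19 and 0.17. Libraries of unlike number also correlated there, media 3 with CSF 2 at 0.23 and media 2 with CSF 3 at 0.16. These values cannot settle whether the numbers pair the NALM-6 libraries. In REH the values for numbers 1 to 3 were -0.46, 0.24 and -0.32, and the numbers were not taken to pair. The 9 genes and the 9 other gene lists were chosen with earlier results of these data known. Named are all 9 genes, up to 4 called genes per other list and comparison, those with the largest log2 change, and the genes of nearest pattern; JAK2, TAPBP and members of the ratios were added after their values had been seen.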

Additional observations from a re-analysis of the deposited data

Results flagged for a closer look

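A difference between the CSF responses of the lines (REH minus NALM-6, log2 scale, limma interaction, Benjamini-Hochberg adjusted over all tested genes) set apart 4 of the genes on the lists used here. None of them is one of the 9 class I genes. FCGRT, the heavy chain of the neonatal Fc receptor and a partner of B2M, differed by 2.13 (adjusted p = 0.00410), rising in 3 of 3 REH CSF libraries, and edgeR gave 2.68 with an adjusted p of 0.0653. PRF1, the pore-forming perforin of cytotoxic cells, differed by 1.90 (adjusted p = 1.18e-04), at 6.61 ± 1.08 CPM in REH CSF and 1.04 ± 0.218 in NALM-6 CSF against 0.0798 and 0.0805 in media, and edgeR gave 2.87 with an adjusted p of 0.0778. ITGAM, an integrin chain of myeloid cells, differed by 1.60 (adjusted p = 9.97e-04). It was at 52.2 ± 8.88 CPM in REH CSF and 1.42 ± 0.268 in NALM-6 CSF, against 6.92 and 0.0973 in media. CSF1R, a receptor of myeloid cells, differed by 1.44 (adjusted p = 5.62e-04). It was at 16.3 ± 0.498 CPM in REH CSF and 0.143 ± 0.170 in NALM-6 CSF, against 4.78 and 0.0308 in media. In NALM-6 media both ITGAM and CSF1R were under 1 CPM, where log2(CPM + 1) understates a change. ITGAM and CSF1R changed sign with the model, as given with the processing alternatives.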

How the results depend on the processing

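Whether a single gene among the 9 was called stayed as reported in 1006 of 1080 results under the 24 alternatives, and in 44 of these an uncalled difference took the other sign. Of the others 45 gained a call, 26 lost one and 3 took the other sign and were called. The number of the 9 called in NALM-6 CSF, 1, went to 0 with the replicate block, 3 with the transcript length correction and 3 with 10 libraries (without NALM-6 media 1 and REH CSF 3), and lay between 1 and 2 when 1 library was left out, 2 being without NALM-6 media 1. In REH CSF it went from 2 to 1 under median-of-ratios scaling, the replicate block and edgeR, to 6 with the length correction and 6 with 10 libraries, and lay between 1 (without REH media 1, 2 or 3 or REH CSF 2) and 6 (without NALM-6 media 1). Under DESeq2 it stayed at 2 there, with NLRC5 called in place of HLA-E. For the interaction it went from 0 to 1 with DESeq2 and 2 with 10 libraries, and stayed at 0 when 1 library was left out. For REH against NALM-6 in media it went from 3 to 1 with no filter or the replicate block, 6 with DESeq2 and 7 with 10 libraries, and lay between 1 (without REH media 1, 2 or 3) and 4 (without REH CSF 3). In CSF it went from 1 to 2 under median-of-ratios scaling or DESeq2, 4 with the length correction and 8 with 10 libraries, and lay between 1 and 5, 5 being without NALM-6 media 1. The causes were not tested.

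With 10 libraries the following took the other sign and were called: PSMB9 (0.22), PNKD (0.30) and NFKB1 (-0.26) in REH against NALM-6 in media, and HLA-B (-0.17), B2M (-0.16) and H3F3B (-0.13) in CSF. The interaction turned for ITGAM under edgeR (-0.69) and DESeq2 (-0.74) and for CSF1R (-0.14 and -0.25). Over all tested genes, calls lay between 864 and 5865 in NALM-6 CSF, 1435 and 6586 in REH CSF, 124 and 2198 for the interaction, 4217 and 9628 in media and 3780 and 9904 in CSF. In NALM-6 CSF 1565 genes rose and 177 fell, and 1073 and 341 under median-of-ratios scaling, which moved the median of all genes from 0.25 to 0.03. In REH CSF 1899 rose and 245 fell, and 1462 and 537. REH was higher for 3791 genes and lower for 1935 in media, and for 3221 and 2551 so scaled. Each of the 9 genes had at least 912 reads in each library, and differences within the spread of 3 libraries were not detectable.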
